A study of Mus musculus with 2 samples.

Results

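A set of 10 genes of glucose uptake, glycolysis and oxygen sensing was followed through CD45+ immune cells of the mouse cochlea: Hif1a, Egln1, Slc2a3, Slc2a1, Hk2, Hk3, Aldoa, Pgk1, Ldha and Pkm. They were taken by name, 10 of the 31053 genes counted, and all 10 were detected. Their levels were read in 3 neutrophil stages and 4 other marker-gated lineages, and in 4 pools of cells that differed in the time since noise exposure.

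Glycolysis turns glucose into pyruvate in the cytosol and yields ATP without oxygen. Neutrophils are known for few mitochondria and for a strong reliance on glycolysis, which also lets them work in poorly perfused tissue. HIF-1α, the protein of Hif1a, is the oxygen-labile subunit of a transcription factor that raises glucose transporters and glycolytic enzymes when oxygen is low. The prolyl hydroxylase PHD2, the product of Egln1, marks HIF-1α for degradation while oxygen is present, and Egln1 is itself a HIF target. Much of this control acts on the HIF-1α protein, which these RNA counts do not measure.

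Cochleae were pooled from 6 mice per condition, and living CD45+ cells were sorted and tagged with 1 hashtag antibody per condition: sham, and 3, 7 and 14 days after noise. The labels call the control sham in the protocol and untreated in the design text, and strain, sex, age and noise level are not given in the sources used here. All pools shared 1 droplet run, so there are 4 samples, and cells of a pool are not replicates. A cell was assigned to a pool when its top hashtag had at least 10 UMIs (unique molecular identifiers, each a counted molecule) and at least 80% of its hashtag UMIs.

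After filtering, 1285 of 1556 barcodes remained, 341 sham, 551 day 3, 216 day 7 and 177 day 14 cells, with 1873067 to 6681492 UMIs per pool. Neutrophils were split by marker scores that did not use the 10 genes. Immature cells (182) held the granule gene Camp at 40680 CPM (UMIs scaled to a common total of all genes), against 3138 in intermediate (157) and 212.9 in late cells (125). Intermediate cells were led by Retnlg (49410 CPM) and late cells by the cytokine gene Il1b (9624 CPM) and the receptor gene Csf3r (2253 CPM). The macrophage marker C1qa stood at 64.94 CPM in immature, 1.99 in late and 1300 in macrophage gates. The stages are ranges of a score and not separate types, and 36 of the 157 intermediate cells lay within the margin of another gate. Median UMIs per cell were 16531, 7999 and 3671 in immature, intermediate and late cells, and the part of depth in stage differences was tested only by scaling and thinning. Levels below are normalised CPM, scaled by composition with TMM factors (trimmed mean of M values), 1 value per pool. In the late gate, 2 day 14 cells stood apart: they held 24019 and 27618 of the 115314 UMIs of the day 14 sum, and 41 UMIs each of Mpo, a progenitor gene. They held 31 to 60 UMIs of Il1b, but no UMI of Slc2a3 or Slc2a1, 12 of the 16 Pgk1 UMIs and 18 of the 22 Ldha UMIs of the late day 14 sum. The tests were therefore repeated without cells that held over 3 times the median UMIs of their gate.

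Hif1a, on chromosome 12 (GRCm38 chr12:73901375-73947530, plus strand, ENSMUSG00000021109), was low in immature neutrophils and higher in intermediate ones. Immature sums held 28.27, 30.88, 0.0 and 24.22 normalised CPM in sham, day 3, day 7 and day 14. Intermediate sums held 79.67, 64.45, 98.65 and 107.0, above every immature sum. Late sums held 128.4, 63.7, 40.53 and 44.45, of which sham was far above the other 3. These levels rest on few molecules: the immature sums held 9, 43, 0 and 9 Hif1a UMIs and the late sums 11, 14, 3 and 5. The mean over pools was 87.44 ± 19.12 in intermediate (SD, n = 4), 69.27 ± 40.7 in late and 20.84 ± 14.16 in immature cells. B cells (61.03 ± 6.777), macrophages, monocytes and dendritic cells (55.27 ± 13.65, n = 3), T and NK cells (51.87 ± 16.76) and B cell precursors (37.61 ± 3.746) lay between, and in this order the range over pools was apart from its neighbour only between B cell precursors and immature neutrophils. Without TMM factors the order changed. CPM over all pools was then 84.52 in B cells, 75.66 in macrophages, monocytes and dendritic cells and 65.67 in late neutrophils. T and NK cells held 65.57, B cell precursors 51.19, intermediate neutrophils 48.12 and immature neutrophils 18.25.

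Egln1, on chromosome 8 (chr8:124908587-124949324, minus strand, ENSMUSG00000031987), had overlapping neighbours throughout its order of lineages. Its means ran from 62.21 ± 12.11 normalised CPM in T and NK cells to 26.5 ± 22.66 in intermediate neutrophils. All 4 sums of T and NK cells (50.47 to 79.01) lay above those of B cell precursors (up to 49.72) and of B cells (up to 45.77). Within late neutrophils the pools held 93.4 (sham), 22.75 (day 3), 40.53 (day 7) and 71.12 (day 14), from 8, 5, 3 and 8 UMIs. The 2 deep cells held 6 of those 8 day 14 UMIs.

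Slc2a3 encodes the high-affinity glucose transporter GLUT3 (chr6:122727809-122801640, minus strand, ENSMUSG00000003153) and was higher in neutrophils than in the other lineages. Immature sums held 232.5, 255.6, 369.7 and 129.2 normalised CPM in sham, day 3, day 7 and day 14. Intermediate sums held 823.3, 691.4, 887.9 and 802.7, and late sums 396.9, 591.5, 621.5 and 222.2. All 12 neutrophil sums lay above every sum of the other lineages, whose highest value was 62.38 in day 14 T and NK cells. The order of means was intermediate (801.3 ± 81.78, n = 4), late (458.0 ± 186.1), immature (246.8 ± 98.68), T and NK cells (48.2 ± 13.82), B cells (36.91 ± 17.74), macrophages, monocytes and dendritic cells (14.63 ± 9.461) and B cell precursors (6.373 ± 2.468). Ranges were apart between intermediate and late cells and between immature neutrophils and T and NK cells, and late and immature ranges overlapped. Without TMM factors, CPM over all pools was 461.5 in intermediate and 467.7 in late cells. Myeloid progenitors, with too few cells for the fit, held 7.086 CPM of Slc2a3 over all pools.

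Slc2a1, which encodes the broadly used transporter GLUT1 (chr4:119108711-119137983, plus strand, ENSMUSG00000028645), was highest in late neutrophils. Late sums held 46.7, 131.9, 108.1 and 44.45 normalised CPM in sham, day 3, day 7 and day 14 (4, 29, 8 and 5 UMIs). Intermediate sums held 46.48, 35.15, 26.31 and 26.76, and immature sums 9.425, 13.64, 7.394 and 5.383. Day 3 and day 7 late cells lay above the rest, while sham and day 14 late cells overlapped the intermediate range. Outside neutrophils the means were 17.06 ± 14.45 in T and NK cells, 15.98 ± 4.218 (n = 3) in macrophages, monocytes and dendritic cells, 14.84 ± 10.26 in B cells and 6.977 ± 1.486 in B cell precursors, and these ranges overlapped those of intermediate or immature cells.

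The hexokinases, which trap glucose by phosphorylation, differed in their pattern. With TMM scaling, Hk2 (chr6:82725025-82774454, minus strand, ENSMUSG00000000628) was highest in immature neutrophils among lineages in the fit, with 175.9, 158.7, 221.8 and 145.3 normalised CPM. Macrophages, monocytes and dendritic cells followed (102.9 ± 12.39, n = 3), and their range overlapped those of intermediate (93.37 ± 33.47) and late neutrophils (71.09 ± 21.93). Lymphoid lineages lay below all of these, at 21.01 ± 5.988 in T and NK cells, 10.25 ± 8.111 in B cells and 6.133 ± 4.557 in B cell precursors. Hk3, the myeloid hexokinase (chr13:55005985-55021385, minus strand, ENSMUSG00000025877), was carried by all 3 neutrophil stages, at 292.1 ± 60.39 in intermediate, 216.1 ± 43.59 in immature and 143.3 ± 62.71 in late cells, with overlapping neighbours. Macrophages, monocytes and dendritic cells held 16.69 ± 1.684 (n = 3), and B cell precursors held no Hk3 UMI in 203 cells.

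Of the later enzymes, pyruvate kinase was highest in the intermediate stage and lactate dehydrogenase in immature cells, and aldolase was at a like level in both. Aldoa, which splits fructose bisphosphate (chr7:126795234-126800751, minus strand, ENSMUSG00000030695), stood at 615.3 ± 123.8 normalised CPM in intermediate, 579.9 ± 101.4 in immature and 320.4 ± 101.3 in late cells, and the ranges of the first 2 overlapped. An additional Aldoa identifier in the annotation (ENSMUSG00000114515) held no UMI in the gates. Pkm, the pyruvate kinase of the last step (chr9:59656368-59679375, plus strand, ENSMUSG00000032294), stood at 1292.0 ± 71.17 in intermediate cells, apart in range from immature (831.6 ± 69.27) and late cells (690.6 ± 165.2). Among the other lineages in the fit, the highest mean of Pkm was 287.2 ± 71.97 (n = 3), in macrophages, monocytes and dendritic cells. Myeloid progenitors, not in the fit, held 548.0 CPM of Pkm over all pools. On that measure immature neutrophils held 559.0 and macrophages, monocytes and dendritic cells 364.0.

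Pgk1, the kinase of the step that first pays back ATP (X:106187100-106203699, plus strand, ENSMUSG00000062070), held 329.9, 358.3, 340.1 and 325.7 normalised CPM in immature sums and 265.6, 345.7, 388.0 and 303.2 in intermediate sums. Its late sums held 70.05, 63.7, 81.06 and 142.2, all below the earlier stages, and the highest is the day 14 sum with the 2 deep cells. The late mean was 89.25 ± 36.02, against 119.6 ± 25.53 in B cell precursors (81.51 to 135.2) and 117.6 ± 25.99 in T and NK cells (80.87 to 141.4). Sham and day 3 late sums lay below both of these ranges, day 7 was at their lower end, and day 14 lay above both. Without TMM factors, CPM over all pools was 83.58 in late cells, 168.0 in B cell precursors and 138.9 in T and NK cells. Ldha, which turns pyruvate into lactate (chr7:46841475-46855627, plus strand, ENSMUSG00000063229), held 609.5, 535.7, 613.7 and 476.4 in immature, 285.5, 316.4, 296.0 and 160.5 in intermediate and 116.7, 77.35, 162.1 and 195.6 in late sums. The immature range was above that of every other lineage in the fit, and T and NK cells (254.9 ± 49.87) were close to intermediate neutrophils (264.6 ± 70.58). Without TMM factors T and NK cells held more, 313.7 CPM over all pools against 168.8 in intermediate neutrophils.

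**Figure D1:**
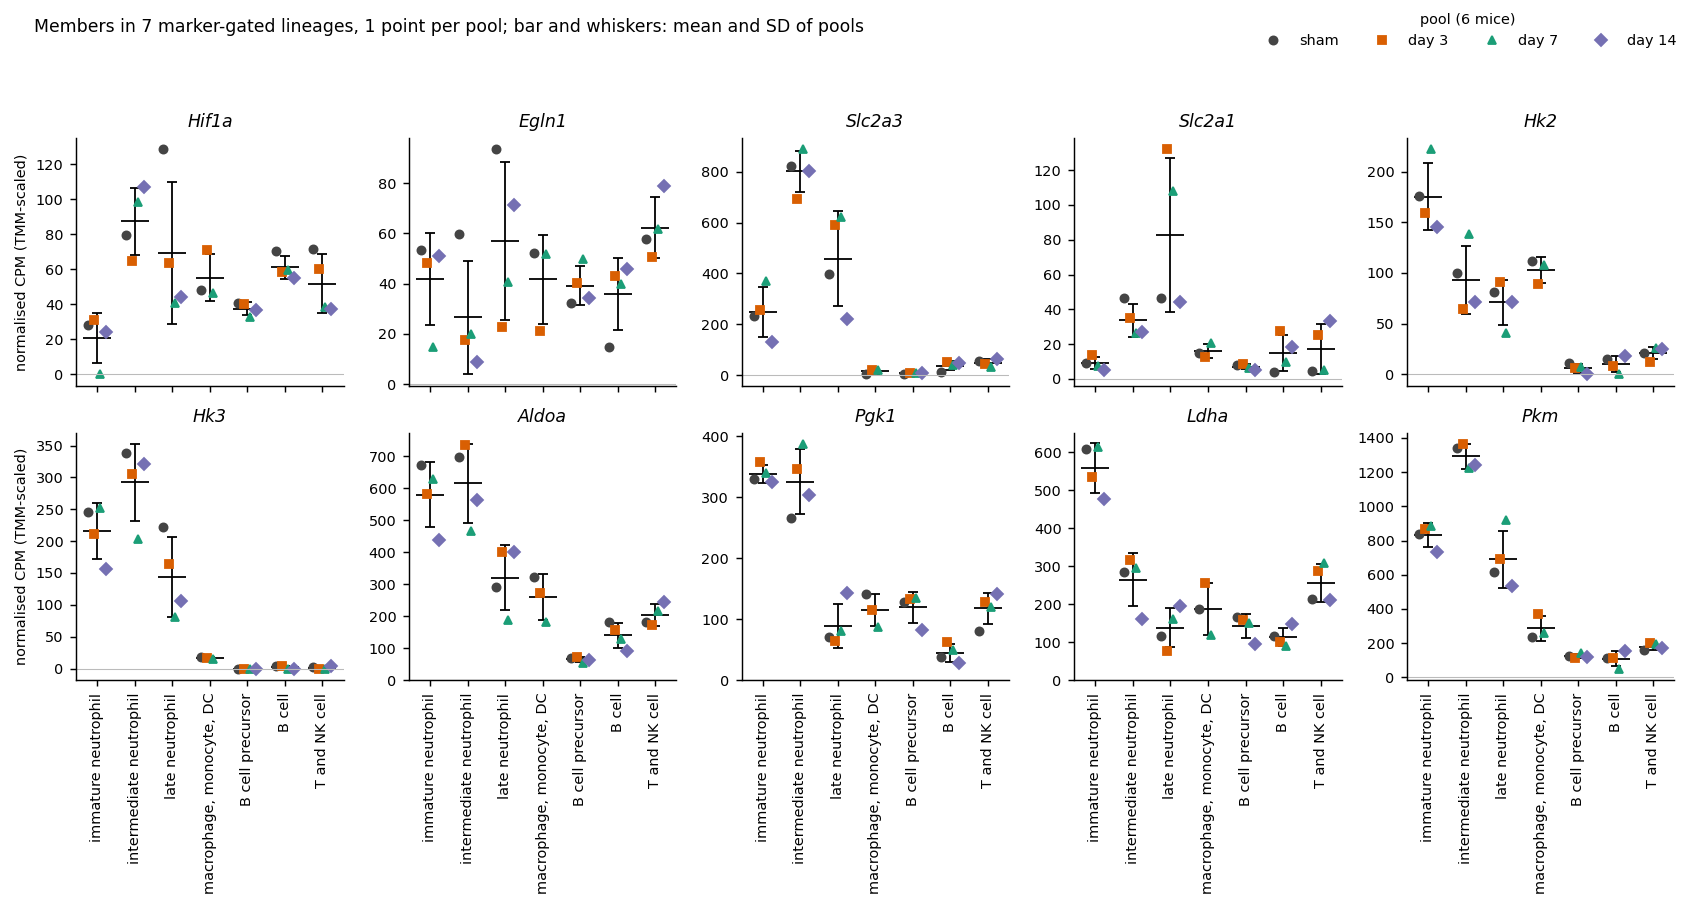
Normalised CPM of the 10 genes (y axis, linear, TMM-scaled) in 7 marker-gated lineages (x axis), with 1 point per pool and the mean and SD of the pools as a bar with whiskers. Slc2a3, Hk3 and Pkm are high in the 3 neutrophil gates and lower in the other gates shown. Slc2a1 is highest in late cells of day 3 (131.9) and day 7 (108.1), and Pgk1 is low in late cells of all pools (63.7 to 142.2).

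How did the genes differ between neutrophil stages? The transporters and Hif1a took a larger share of the RNA of late than of immature neutrophils with TMM scaling, and Ldha, Pgk1, Hk2 and Aldoa a smaller one. Per cell, only Slc2a1 of these had more UMIs in late cells. Each stage was compared in edgeR's quasi-likelihood test on UMIs summed per lineage and pool, with the pool as a block, over 5984 genes with Benjamini-Hochberg adjustment. Between late and immature cells 3 members were higher and 4 lower, while 18.4% of all genes tested were higher and 15.0% lower (33.4% in all). The p-values measure the spread of lineage levels over 4 pools of 1 run that is left after the block removes shifts shared by a pool. That spread was estimated over all lineages together, and the pools are different conditions and not replicates of 1. Summed values cannot tell fewer expressing cells from less RNA per cell.

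Slc2a1 was higher in late than in immature cells by a log2 fold change of 3.11 (SE 0.49, adjusted p = 7.6e-06, edgeR), Hif1a by 1.41 (SE 0.38, adjusted p = 0.0041) and Slc2a3 by 0.94 (SE 0.28, adjusted p = 0.0095). Ldha was lower at -2.05 (SE 0.28, adjusted p = 1.0e-06), Pgk1 at -1.95 (SE 0.27, adjusted p = 1.2e-06), Hk2 at -1.13 (SE 0.29, adjusted p = 0.0033) and Aldoa at -0.80 (SE 0.22, adjusted p = 0.0059). Egln1 (0.13, adjusted p = 0.87), Hk3 (-0.53, adjusted p = 0.11) and Pkm (-0.27, adjusted p = 0.36) did not pass in edgeR. The calls of Slc2a1, Pgk1 and Ldha held in all alternatives run (14, 15 and 15). The Hif1a call was lost without the sham pool (0.99, adjusted p = 0.131) or the day 3 pool (1.47, adjusted p = 0.0534), and that of Slc2a3 without the day 3 pool (0.54, adjusted p = 0.309) or with DESeq2 (0.80, adjusted p = 0.0999). That of Aldoa was lost without the day 7 pool (-0.59, adjusted p = 0.0731) and with clusters in place of gates (-0.45, adjusted p = 0.0692). Hk3 gained a call under 4 alternatives and Pkm under 2, all lower. Without the deep cells, Ldha was at -2.69, Pgk1 at -2.51 and Slc2a1 at 3.12.

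The scaling bears on these values. TMM factors were 0.571 to 0.614 in intermediate, 0.611 to 0.705 in immature and 0.939 to 1.056 in late sums. With library totals in their place, the median of all genes between late and immature cells moved from -0.06 to 0.49, the calls of Hk2 (-0.54, adjusted p = 0.156) and Aldoa (-0.21, adjusted p = 0.48) were lost, and Slc2a1 (3.65), Hif1a (1.97), Slc2a3 (1.54), Pgk1 (-1.37) and Ldha (-1.46) kept their calls. In the other lineages TMM factors were 1.134 to 1.51, so the orders of lineages above also depend on the scaling.

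The transporters and Hif1a were higher already in intermediate than in immature cells, whereas Pgk1 was called lower between intermediate and late cells. From immature to intermediate cells 4 members were higher and 2 lower (all genes 18.0% and 20.5%, 38.5% in all). Slc2a3 was higher by 1.77 (SE 0.27, adjusted p = 7.6e-06, edgeR), Slc2a1 by 1.78 (SE 0.53, adjusted p = 0.0095), Hif1a by 1.72 (SE 0.33, adjusted p = 1.9e-04) and Pkm by 0.63 (SE 0.20, adjusted p = 0.015). Ldha was lower at -1.07 (SE 0.24, adjusted p = 0.0011) and Hk2 at -0.95 (SE 0.26, adjusted p = 0.0051). Pgk1 stood at -0.07 there (adjusted p = 0.83, edgeR). The calls of Slc2a3, Hif1a, Ldha and Hk2 held in all 15 alternatives, while Pkm lost its call under 5 of 15, and Slc2a1 and Pkm lost theirs without the sham pool (1.44 and 0.49, adjusted p = 0.072 and 0.192) and without the day 3 pool (1.94 and 0.42, adjusted p = 0.077 and 0.232).

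From intermediate to late cells 1 member was higher and 6 lower (all genes 8.71% and 8.19%, 16.9% in all), and most of these calls depended on the scaling. Pgk1 was lower at -1.88 (SE 0.28, adjusted p = 1.5e-05, edgeR), at -1.16 with library totals (adjusted p = 0.0025), and held in all 15 alternatives. Hk3 (-0.99), Ldha (-0.99), Pkm (-0.90), Aldoa (-0.88) and Slc2a3 (-0.83) were lower with TMM scaling, but stood at -0.26, -0.27, -0.15, -0.16 and -0.08 with library totals, with no call. That scaling moved the median of all genes from 0.12 to 0.83. Slc2a1 was higher by 1.34 (adjusted p = 0.048, edgeR), and lost its call without the day 3 pool (0.86, adjusted p = 0.466) or the day 7 pool (1.17, adjusted p = 0.165). Beside Slc2a3, which kept its call under 6 of 15 alternatives, Ldha kept it under 11 and Hk3, Pkm and Aldoa under 13 each. Without the sham pool only 2 members were lower. Hif1a (-0.30) and Egln1 (0.99) did not pass with TMM scaling.

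**Figure D2:**
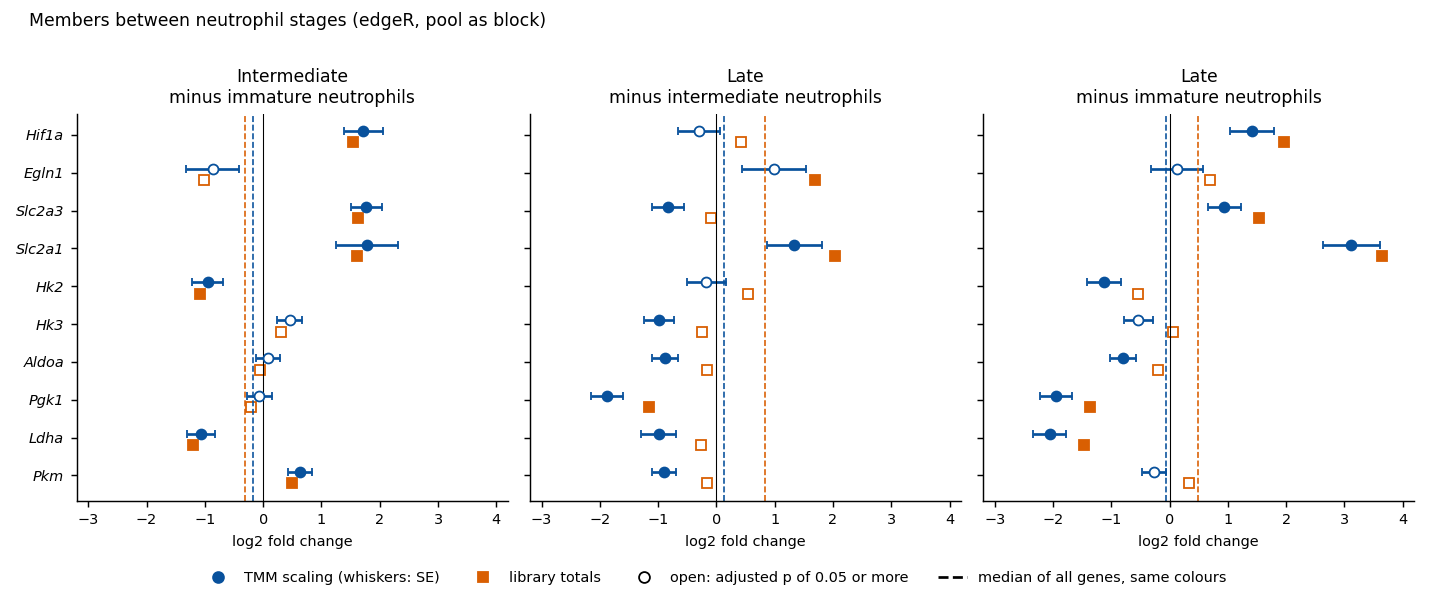
Log2 fold change (x axis) of the 10 genes between neutrophil stages, with TMM scaling (circles, whiskers are SE) and with library totals (squares), filled where the adjusted p is under 0.05, and the median of all genes dashed. Pgk1 stands near 0 (-0.07) between immature and intermediate cells and at -1.88 between intermediate and late cells, whereas Slc2a3 and Hif1a stand at 1.77 and 1.72 in the first comparison.

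Counts per cell, which use no scaling, gave another view because late cells held fewer UMIs. Slc2a1 alone of the 10 genes had its highest mean number of UMIs per cell in the late stage, 0.1374, 0.1656 and 0.368 in immature, intermediate and late cells. Hif1a had 0.3352, 0.3885 and 0.264, and Slc2a3 2.901, 3.726 and 1.88. Ldha had 6.593, 1.363 and 0.488 UMIs per cell, and Pgk1 4.236, 1.599 and 0.336.

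Thinning each cell to 2000 UMIs put the stages at equal depth. Slc2a1 was then found in 0 of 176 immature cells, which allows a share of up to 2.07% (exact Clopper-Pearson 95% interval), in 4.08% of intermediate cells (1.51 to 8.67) and in 17.1% of late cells (10.8 to 25.2). Without thinning the shares were 11.0%, 14.0% and 25.6%. B cell precursors gave 3.09% and T and NK cells 2.31% after thinning (medians of 6459 and 6790 UMIs unthinned), so the intermediate share was near theirs and the late share above. Hif1a was found in 2.27%, 6.80% and 13.7% of thinned cells (24.7%, 26.8% and 19.2% unthinned), so its order by share of cells changed with depth, and B cell precursors and T and NK cells gave 12.4% and 13.9%, close to late cells. Slc2a3 was found in 31.2%, 61.2% and 57.3% of thinned cells, Ldha in 55.1%, 25.9% and 20.5%, and Pgk1 in 34.7%, 31.3% and 12.0%. Shallower cells were left out, 6 immature, 10 intermediate and 8 late. These intervals cover counting error over cells only.

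**Figure D3:**
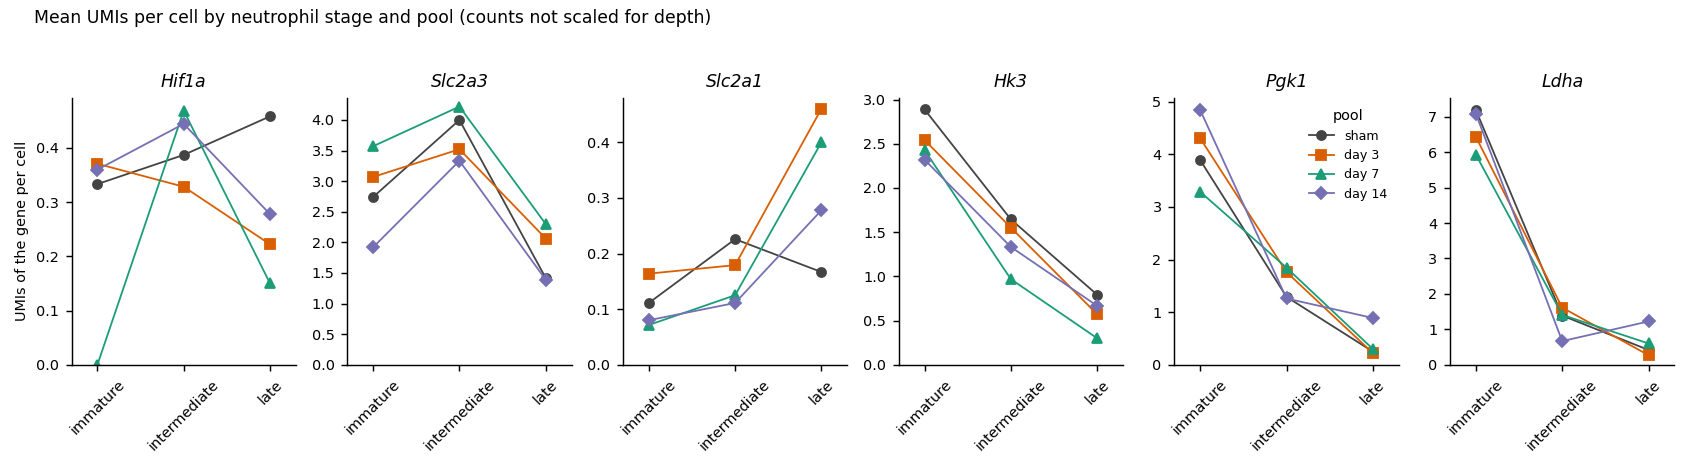
Mean UMIs per cell (y axis, linear) of 6 genes in immature, intermediate and late neutrophils (x axis), 1 line per pool. Pgk1 is lower at each later stage in all pools, and so is Ldha except on day 14, where the late sum holds the 2 deep cells. Slc2a1 is highest in late cells of day 3, 7 and 14 but not of sham.

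The promoters of the genes were searched for the core of the hypoxia response element, the site HIF binds, because genes that moved in opposite directions between stages include known HIF targets. The core was spelled ACGTG or GCGTG on both strands, and CACGTG, a palindrome, counts on both. RefSeq windows of 250 bases before the start matched 9 of the 10 members (Slc2a3 not used here), with 13 windows. All 9 held a core in at least 1 window and 11 of the 13 windows held 1, against 38.6% of all 32851 windows and 41.5% of the 27025 genes. ACGTG was in 16.6% and GCGTG in 28.2% of all windows. A match describes the letters and is not a bound site. The stretches of 60 bases that follow are from GRCm38.p6, on the strand of the gene, 5′ to 3′, with cores in capitals (a core of the other strand reads CACGT or CACGC). They are shown for Slc2a1, which was higher in late than in immature cells, for Pgk1, Ldha and Hk2, which were lower, and for the HIF regulator Egln1. Aldoa, also lower, held no core in the first of its 3 windows and 1 in each of the others, and is not shown.
Slc2a1, chr4:119108666-119108725: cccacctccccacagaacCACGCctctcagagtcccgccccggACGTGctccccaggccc
Pgk1, X:106186929-106186988: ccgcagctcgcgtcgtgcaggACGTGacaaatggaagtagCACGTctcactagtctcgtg
Ldha, chr7:46845731-46845790: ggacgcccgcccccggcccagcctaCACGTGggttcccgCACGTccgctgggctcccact
Hk2, chr6:82774477-82774536: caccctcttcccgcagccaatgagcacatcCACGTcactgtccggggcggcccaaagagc
Egln1, chr8:124949351-124949410: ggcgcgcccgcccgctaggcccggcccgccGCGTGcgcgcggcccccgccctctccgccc
The Slc2a1 stretch ends 20 bases before the RefSeq start, and 15 of its bases lie in a GENCODE exon of the gene; the other 4 stretches hold no exon base. Each stretch was placed in the first window of its gene to hold the most cores with at most 15 exon bases, so its number of cores follows from that choice. Slc2a1, higher in late cells, and Ldha and Pgk1, lower there, each held at least 2 cores in the stretch shown. Hk2, also lower, held 1 in its stretch and 2 in its whole window. The Ldha stretch is from the first of its windows, and the bases after that start were not found in its GENCODE transcripts. The other Ldha window, whose start was found there, held 1 core, GCGTG.

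Other glycolytic enzymes gave no higher call between stages. Of 14 listed, 8 were tested. Between late and immature cells none was higher and 5 were lower (all genes 18.4% and 15.0%). The median was -1.34 against -0.06 for all genes. With library totals 4 were lower, and the median was -0.74 against 0.49. Gapdh, the dehydrogenase of the pathway, was lower at -1.63, Hk1 at -1.44 (no call with library totals, -0.87) and Pgam1 at -1.43 (adjusted p = 2.4e-05, 0.029 and 4.4e-05, edgeR). Between intermediate and immature cells none of the 8 was called (all genes 18.0% higher and 20.5% lower). Their median was -0.17, the same as for all genes (-0.17). Between late and intermediate cells 4 of the 8 were lower, against 8.19% of all genes, and 2 with library totals. Gapdh at -1.78, Gpi1 at -1.37 and Pgam1 at -1.27 led them.

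The pentose phosphate pathway, which supplies NADPH for the oxidative burst, was mostly lower in late than in immature cells. All 7 genes were tested, and 1 was higher and 5 lower (all genes 18.4% and 15.0%), or 1 and 4 with library totals. The median was -2.16 against -0.06 for all genes. Rpe (-3.24), G6pdx (-2.63), which encodes the rate-limiting dehydrogenase, and Tkt (-2.59) were lower, whereas the transaldolase gene Taldo1 was higher (1.02, adjusted p = 1.5e-04, edgeR). Between intermediate and immature cells Taldo1 (1.36) and Pgd (1.08) were higher, and Rpe (-2.62), Rpia (-1.91), Pgls (-1.48) and 1 more of the 7 were lower. The shares of all genes there were 18.0% higher and 20.5% lower.

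Transport beside the members was led by Slc2a6 and Slc16a3. Slc2a6, a hexose transporter of lysosomes and the only 1 of 6 listed that was tested, was higher in intermediate than in immature cells by 5.39 and in late by 5.43 (adjusted p = 2.5e-07 and 2.3e-07, edgeR). The lactate exporter Slc16a3 was higher by 2.26 and 2.07 in the same comparisons. Of the 6 lactate and pyruvate genes tested of 12, it was the only higher one, and Mpc2 (-1.90), Pdha1 (-1.20) and Mpc1 (-0.83), which bring pyruvate into mitochondrial oxidation, were lower in late than in immature cells. With library totals Mpc2 was the only lower one. Of the 5 glycogen genes tested of 8, Gyg (-3.69) and Gbe1 (-1.33) were lower in late than in immature cells, and only Gyg with library totals (-3.12). With TMM scaling, 2 of the 5 were higher and 0 lower in intermediate than in immature cells. Between late and intermediate cells 0 were higher and 4 lower (all genes 8.71% and 8.19%). For all genes the shares were 18.4% higher and 15.0% lower between late and immature cells. Between intermediate and immature cells they were 18.0% and 20.5%.

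Other HIF target genes were called at shares near those of all genes between late and immature cells (18.4% higher and 15.0% lower). Of 17 listed, 11 were tested, and between late and immature cells 3 were higher and 1 lower, with a median of 0.57, or 4 and 1 with library totals and 2 and 2 with DESeq2 size factors. Ndrg1, a stress-response gene, was higher by 2.22 and 1.95 without the deep cells, and Ero1l, an oxidase of protein folding, was lower at -2.80. Higd1a, a mitochondrial protein gene, was higher by 0.77 (adjusted p = 0.038, edgeR) and at 0.65 without the deep cells (adjusted p = 0.056). Mif was higher by 2.84, but the 2 deep cells held 14 and 39 of its UMIs, and without deep cells it stood at 0.59 (adjusted p = 0.48, edgeR), and 1 target was higher and 2 lower of the 10 then tested. Between intermediate and immature cells Ndrg1 (1.38), the lipid droplet gene Plin2 (1.28) and Higd1a (1.22) were higher and Ero1l (-3.41) was lower. The 3 oxygen sensing partners tested of 9 gave no call between late and immature cells with TMM scaling, and 1 higher with library totals.

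Did late neutrophils differ from other immune cells of the same pools? Against each of the other lineages Slc2a3, Slc2a1, Hk3 and Pkm were higher in late neutrophils. Against B cell precursors 6 members were higher and none lower (all genes 28.7% and 33.2%, 61.9% in all), against B cells 7 and 0 (24.8% and 20.5%, 45.3% in all), against T and NK cells 6 and 1 (25.6% and 27.3%, 52.9% in all), and against macrophages, monocytes and dendritic cells 4 and 0 (21.1% and 21.7%, 42.8% in all). Hif1a and Egln1 were called against none of these. Under the alternatives, Hif1a was higher than in B cell precursors without the day 7 pool (0.86, adjusted p = 0.045, edgeR) and with clusters (0.98, adjusted p = 0.0016), and Egln1 was lower than in T and NK cells with clusters (-1.11, adjusted p = 0.013).

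Slc2a3 was higher in late neutrophils by 6.10 against B cell precursors (SE 0.39, adjusted p = 6.1e-14, edgeR), 4.91 against macrophages, monocytes and dendritic cells, 3.66 against B cells and 3.20 against T and NK cells. Slc2a1 was higher by 3.41, 2.50, 2.46 and 2.34 in the same order, and the call against macrophages, monocytes and dendritic cells was lost without the day 3 pool (1.47, adjusted p = 0.191). Pkm was higher by 2.42, 1.23, 2.59 and 1.89. All these calls of Slc2a3 and Pkm, and those of Slc2a1 against lymphoid cells, held in every alternative run.

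Hk3 was nearly absent from lymphocytes. With 73 UMIs (145.3 CPM) in late cells and none in B cell precursors, it was at least 93.7-fold higher in late cells, taking 3 UMIs over the group as the floor. Both B cells and T and NK cells held 2 UMIs, ratios of 39.5 (10.6 to 333) and 103 (27.5 to 867, exact Poisson 95% intervals). In cells thinned to 2000 UMIs, Hk3 was found in 27.4% of late neutrophils (median 3671 UMIs unthinned) and in 0 of the thinned B cell precursors (median 6459 UMIs), which allows up to 1.88%. Free RNA was low on this scale: S100a8, S100a9 and Retnlg reached 0.255% to 0.515% of the neutrophil level in lymphoid gates, and Hk3 0%, 2.47% and 0.948% in B cell precursors, B cells and T and NK cells. Slc2a3 reached 3.14%, 17.4% and 21.1% there, above those abundant genes.

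Hk2 was higher in late neutrophils than in B cell precursors by 3.44, in B cells by 2.79 and in T and NK cells by 1.95, the last lost without the day 3 pool (1.27, adjusted p = 0.055). Against macrophages, monocytes and dendritic cells it stood at -0.36 with no call, and at -0.75 without the deep cells (adjusted p = 0.048, edgeR). Aldoa was higher by 2.30, 1.17 and 0.65 against the 3 lymphoid lineages, and the call against B cells was lost without the day 3 pool (0.77, adjusted p = 0.076, edgeR) and that against T and NK cells under 9 of 15 alternatives. The Pgk1 call against B cells (0.89, adjusted p = 0.044, edgeR) was lost under 11 of 14 alternatives, including each pool left out.

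Ldha was the exception. It was lower in late neutrophils than in T and NK cells, at -0.98 (SE 0.29, adjusted p = 0.0061, edgeR), a call that held in all 15 alternatives and stood at -1.71 without the deep cells. Against macrophages, monocytes and dendritic cells Ldha stood at -0.52 with no call, and at -1.29 without the deep cells (adjusted p = 0.0014). Pgk1 stood at -0.45 against both of these lineages, and without the deep cells at -0.99 and -1.12 (adjusted p = 0.0038 and 0.0023, edgeR). Without the day 14 pool, Pgk1 was lower against both as well (-0.74 and -0.82, adjusted p = 0.042 and 0.033).

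Pathway genes also separated late neutrophils from lymphocytes. For all genes, 28.7% were higher and 33.2% lower than in B cell precursors, and 25.6% and 27.3% than in T and NK cells. The lactate exporter Slc16a3 held 359 UMIs in late cells and 3 in B cell precursors, a ratio of 461 (156 to 2240), and none in B cells, at least 130-fold. Its list went both ways. Of the 6 lactate and pyruvate genes tested, 1 was higher and 3 lower than in B cell precursors. Against T and NK cells 1 was higher and 2 lower, and against B cells 2 and 1 (all genes 24.8% and 20.5%). Pygl, the phosphorylase that releases glucose from glycogen, was higher than in B cell precursors by 6.67 and than in T and NK cells by 5.31, and 4 and 3 of 5 glycogen genes tested were higher with none lower. Pgd, of the pentose phosphate pathway, was higher by 4.34 and 4.11, while Pgls was lower than in B cell precursors, at -4.31. Of the other glycolytic enzymes, Gpi1 was higher by 1.46 and 1.05 and Pgam1 by 1.40 and 0.94, and Pfkp was lower than in T and NK cells, at -1.93. Of the 11 HIF targets tested, 7 were higher and 2 lower than in B cell precursors (5 and 2 with library totals) and 5 higher and 2 lower than in T and NK cells (5 and 4), with Ndrg1 at 3.24 and 4.55 and Ddit4 at -2.29 and -2.46.

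Did the genes change after noise? Each condition is 1 pool, so these comparisons carry no test, and each day is set against the same sham pool. Late and intermediate neutrophils were joined as mature neutrophils (58 sham, 146 day 3, 60 day 7 and 51 day 14 cells). A gene counted as higher or lower from a 1.5-fold ratio of CPM per library total, if the 2 pools summed to at least 20 UMIs. All 10 members were measured on each day. On day 3, 1 member was higher and 1 lower (all genes 17.5% and 8.36%), on day 7, 1 and 3 (11.7% and 10.7%), and on day 14, 0 and 1 (18.6% and 11.9%). Late cells were 41.4%, 43.2%, 33.3% and 35.3% of mature cells in sham, day 3, day 7 and day 14.

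Egln1, the HIF hydroxylase gene, was lower than sham in mature neutrophils on each day, with few UMIs. It stood at 47.21 CPM in sham (17 UMIs), 13.55 on day 3 (12 UMIs), 19.57 on day 7 (7 UMIs) and 27.16 on day 14 (9 UMIs). The ratios to sham were 0.287 (0.125 to 0.638, exact conditional Poisson 95% interval), 0.415 (0.145 to 1.05) and 0.575 (0.226 to 1.36), and the day 3 ratio stayed between 0.246 and 0.299 over 7 alternatives. Without deep cells the day 14 ratio was 0.227. Only the day 3 interval is below 1, and the intervals cover counting error only.

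Slc2a1 stood at 30.55 CPM in sham, 54.2 on day 3, 50.33 on day 7 and 30.17 on day 14 (11, 48, 18 and 10 UMIs). Its ratios were 1.77 (0.909 to 3.79) on day 3 and 1.65 (0.737 to 3.86) on day 7, with intervals that include 1, and 0.988 on day 14. Slc2a3 stood at 455.4, 460.7, 609.5 and 407.4 CPM, with 1.34 on day 7 (1.09 to 1.65) and 1.01 on day 3 (0.842 to 1.22). Hif1a gave ratios of 0.760, 0.832 and 0.945, all with intervals that include 1.

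Among the enzymes, day 7 mature neutrophils had less Hk3 and Aldoa than sham. Hk3 stood at 211.0 CPM in sham, 169.4 on day 3, 128.6 on day 7 and 166.0 on day 14, with a day 7 ratio of 0.609 (0.413 to 0.890). Aldoa stood at 386.0, 415.5, 257.2 and 368.1 CPM, with a day 7 ratio of 0.666 (0.506 to 0.873) that ran from 0.647 to 0.744 over 7 alternatives. Pgk1, Ldha and Pkm had ratios of 0.841 to 1.37 on the 3 days, each with an interval that includes 1. The day 14 ratio of Ldha, 0.841, was 0.559 without deep cells and 0.637 with clusters in place of gates, both past 1.5-fold. Pkm, with 214 to 660 UMIs per pool, was at 1.01 (0.874 to 1.17) on day 3, an interval that does not reach 1.5-fold.

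Pathway genes in mature neutrophils were set against sham in the same way. Among all genes, 17.5% were higher and 8.36% lower on day 3. The shares were 11.7% and 10.7% on day 7, and 18.6% and 11.9% on day 14. Of 6 other glycolytic enzymes measured, 1 was higher and 1 lower on each day: Tpi1 at 2.03 (0.890 to 5.42), 2.16 and 4.04 (1.71 to 11.0) and Hk1 at 0.426 (0.224 to 0.814), 0.479 and 0.362 on days 3, 7 and 14. Tpi1 on day 14 rested on 26 UMIs, of which 17 came from the 2 deep cells (4 and 13). The oxygen sensing partners gave 0 higher on each day, with 2 of 3 measured lower on day 3, 0 of 2 on day 7 and 1 of 2 on day 14. Of 5 glycogen genes measured, 0 were higher and 1 was lower on each day. Gyg, the protein that primes glycogen, stood at 0.610, 0.269 (0.106 to 0.599) and 0.362 (0.158 to 0.761), from 30 UMIs in sham. Of the other HIF target genes, 8 were measured on day 3, with 1 higher and 0 lower, and 6 on day 7, also with 1 and 0. On day 14, 2 of 6 were higher and 2 lower, with a median log2 ratio of -0.12 against -0.01 for all genes. Among them, Plin2 stood at 1.61 (1.04 to 2.58), 1.86 (1.13 to 3.12) and 2.47 (1.53 to 4.08), and the 2 deep cells held 1 and 2 of its 59 day 14 UMIs. Mif on day 14 was at 7.61, with 53 of its 56 UMIs from the 2 deep cells.

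**Figure D4:**
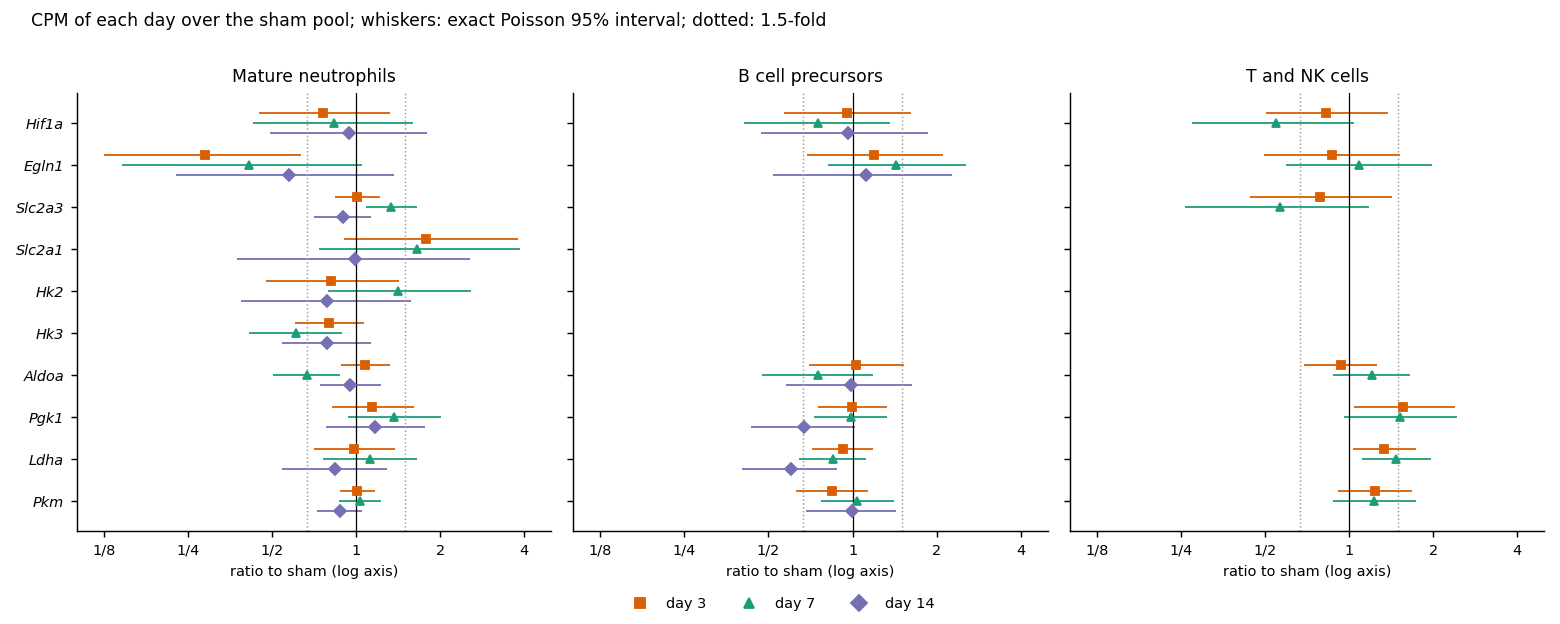
CPM of day 3, 7 and 14 over the sham pool (x axis, log scale) for members with at least 20 UMIs, with exact Poisson 95% intervals as whiskers and 1.5-fold dotted, in mature neutrophils, B cell precursors and T and NK cells. Egln1 on day 3 (0.287) and Hk3 (0.609) and Aldoa (0.666) on day 7 in mature neutrophils have intervals below 1, whereas Pkm lies near 1 in all panels (0.845 to 1.24, and 0.874 on day 14 in mature neutrophils).

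In T and NK cells 7 members were measured. On day 3, 1 was higher and none lower (all genes 13.4% and 9.91%), and on day 7, 1 was higher and 2 lower (13.7% and 12.8%). Pgk1 stood at 96.16 CPM in sham, 150.5 on day 3 and 146.1 on day 7, ratios of 1.57 (1.04 to 2.40) and 1.52 (0.960 to 2.42), which were 1.23 and 1.34 without deep cells. Ldha, at 252.8, 338.1 and 372.9 CPM, had ratios of 1.34 (1.04 to 1.74) and 1.48 (1.12 to 1.96), under the 1.5-fold limit. Hif1a (0.547, 0.275 to 1.05) and Slc2a3 (0.566, 0.258 to 1.18) were lower on day 7, with intervals that include 1.

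In B cell precursors 6 members were measured, and none passed 1.5-fold on day 3 or day 7 (all genes 9.71% higher and 8.81% lower, then 11.9% and 15.9%). On day 14, 1 was lower (11.6% and 13.0%): Ldha at 137.7 CPM against 228.9 in sham, 0.602 (0.403 to 0.879). The day 3 ratio of Ldha, 0.920, was 1.66 without the cell with most Ldha UMIs of each pool, 1.71 without deep cells and 2.30 with stricter gates, and its day 7 ratio, 0.849, was 2.02 with stricter gates. The day 14 value turned to 1.14 when the cell with most Ldha UMIs was left out of each pool and to 1.44 without deep cells. In B cells on day 3, 5 members were measured and Pgk1 was higher at 1.66 (0.709 to 4.10), from 16 and 10 UMIs (all genes 11.4% higher and 12.3% lower).

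Over all CD45+ cells, 3 members were above sham on day 3 by over 1.5-fold. Slc2a3 stood at 90.88 CPM in sham and 144.0 on day 3 (1.58, 1.40 to 1.80), Hk3 at 53.06 and 82.47 (1.55, 1.32 to 1.84) and Slc2a1 at 12.14 and 19.61 (1.62, 1.14 to 2.34), with none lower (all genes 7.21% and 15.2%). Within mature neutrophils the day 3 ratios of Slc2a3, Hk3 and Slc2a1 were 1.01, 0.803 and 1.77. On the same day immature neutrophils were 21.1% of cells against 7.92% in sham, and mature neutrophils 26.5% against 17.0%. On days 7 and 14 no member passed 1.5-fold (7.87% and 7.03%, then 5.93% and 12.7%), and Slc2a3 stood at 1.38 (1.18 to 1.62) and 1.36 (1.14 to 1.61).

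The genes most like each member in level were found by Pearson's r of log2(CPM + 20) over the 27 lineage sums, among 5132 genes, as a description that shares depth and lineage over all sums. For Slc2a3 they were Capn1 (0.954), Gpsm3 (0.943) and G0s2 (0.937), and for Hk3 Fpr2 (0.987), Bmx (0.977) and Mcemp1 (0.977). For Pkm they were Dhrs7 (0.957), Jdp2 (0.951) and Mcemp1 (0.946), and for Hk2 Plbd1 (0.895), App (0.878) and Ifitm3 (0.868). Pgk1 was most like another glycolytic gene, Gapdh (0.814), then Mpc2 (0.772) and Syne2 (0.748), and Ldha was most like Abracl (0.774), Tspo (0.742) and Ywhab (0.734). Aldoa was nearest to genes of actin-regulating proteins, Actr3 (0.879), Flna (0.877) and Cotl1 (0.873). Hif1a was nearest to Malat1 (0.834), Clk1 (0.827) and Cdc42se2 (0.821), and Egln1 to Smim11 (0.860), G3bp2 (0.814) and Anapc11 (0.806). Slc2a1 was under the 200 UMIs the comparison needed.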

How the data were processed

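Deposited values are whole-number UMI counts, in 2 matrices of genes by barcodes that were written by Cell Ranger 3.1.0, per the file headers, on mm10, per the submitters' processing notes. How cells were called is not stated there. Their gene counts were identical and were used once. The labels give both kit v2 and kit v3. Barcodes with under 200 genes or over 10% mitochondrial UMIs were left out, as were 197 barcodes with no clear hashtag. No doublet caller was run, so mixtures within a pool remain.

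Each cell took the lineage with the highest mean marker score (at least 0.25, margin 0.05), a rule set after seeing the data; rebuilt gates may differ from the study's. UMIs were summed per lineage and pool (at least 10 cells, 27 sums, 7 lineages) and tested with edgeR 4.0.16 (R 4.3.3, limma 3.58.1, TMM, filterByExpr, quasi-likelihood, pool as block because the same mice gave every lineage of a pool, adjusted p under 0.05). With 1 pool per condition, days were compared by CPM with exact Poisson intervals and no test, where both pools had at least 30 cells. Antisense and shared reads were not examined.

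The members and lists were chosen with earlier results of these data known. Named genes are the 10 members, up to 3 higher and 3 lower called genes of a pathway list with the largest fold change, and the 3 genes most like a member; other genes named were chosen after their values were seen. Alternatives included DESeq2 1.42.0, other scalings, no low-count filter, clusters (scanpy 1.11.5, igraph 0.11.9), stricter gates and each pool left out; leaving out deep cells was chosen after seeing the data. Positions are from GENCODE vM21, which held 30934 of 31053 gene identifiers. Python 3.11.15, numpy 2.4.6, pandas 2.3.3, scipy 1.17.1 and matplotlib 3.10.9 were used. The edgeR test was run on simulated counts in which lineages shared a mean profile apart from the genes changed. That check could not cover the scaling for differences in composition between lineages.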

Additional observations from a re-analysis of the deposited data

Results flagged for a closer look

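In 60 groups of 4 pools (a member in a lineage), 3 held a pool whose gap to the nearest other pool was large against the whole range, and chance alone gives about 1 in 20 such groups. Egln1 in immature neutrophils was lowest on day 7 at 14.79 normalised CPM (2 UMIs), against 48.11 to 53.41 in the other pools. Slc2a3 in B cell precursors was lowest in sham at 2.705 normalised CPM, against 7.131 to 7.888. Pgk1 in B cell precursors was lowest on day 14 at 81.51 normalised CPM, against 128.5 to 135.2.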

How the results depend on the processing

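Depth limits the low genes: Slc2a1, Hif1a and Egln1 had 3 to 14 UMIs in most late sums, lineage calls rest on 4 pools of 1 run, and days on 1 pool each. The replicate block changed 1 call: with no replicate block, 5 members were lower between late and intermediate cells in place of 6 (Slc2a3, -0.78, adjusted p = 0.0585, edgeR). With library totals, members lower between late and immature cells were 2 (4 with TMM), between late and intermediate cells 2 higher and 1 lower (1 and 6), and lower against B cell precursors 1, T and NK cells 2, macrophages, monocytes and dendritic cells 1. With DESeq2 and with no low-count filter, 0 were higher between late and intermediate cells, and 1 lower against B cell precursors, also with DESeq2 size factors (1). With only the 2 lineages of a contrast, 1 was higher between late and immature, 0 between late and intermediate cells, 3 against B cells, 3 against T and NK cells, and 2 were lower against macrophages, monocytes and dendritic cells; Hif1a and Slc2a1, Slc2a1, and Slc2a1, Hk2, Hk3 and Pgk1 were not tested in the first 3 of these contrasts, nor Slc2a1 and Hk2 in the fourth, and Aldoa lost its call there. Clusters gave 1 lower against B cell precursors, 2 against T and NK cells and 1 against macrophages, monocytes and dendritic cells. Stricter gates gave 0 higher between late and intermediate cells, 1 lower against B cell precursors and 2 against T and NK cells. Without deep cells, 1, 2 and 3 were lower against B cell precursors, T and NK cells, and macrophages, monocytes and dendritic cells. Leaving out each pool in turn gave 1 to 3 higher between late and immature cells, 0 to 1 higher and 2 to 6 lower between late and intermediate cells, 2 to 5 higher between intermediate and immature cells, and 0 to 1, 1 to 2 and 0 to 2 lower against B cell precursors, T and NK cells, and macrophages, monocytes and dendritic cells. The lowest counts came without the day 3 pool (1), the day 3 or day 7 pool (0), the sham pool (2), and the sham or day 3 pool (2), and the highest of the last 3 without the day 14 pool.

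By day, in mature neutrophils a minimum of 50 UMIs left 0 lower on day 3, 0 higher on day 7 and 0 lower on day 14, where stricter gates gave 2, clusters 3, no deep cells 3 and no top cell 0, since Egln1, at 0.290, then fell under 20 UMIs. In B cell precursors, day 3 gave 2 higher with stricter gates, 1 without the top cell, 1 without deep cells and 1 lower with 10 UMIs. Day 7 gave 2 higher and 1 lower with stricter gates and 1 lower without the top cell. Day 14 gave 1 higher without deep cells, 2 lower with median-ratio scaling or no mitochondrial limit, and 0 with clusters or without the top cell, and Ldha reversed to 1.138 without the top cell and 1.44 without deep cells. In B cells on day 3, 2 were higher with clusters, 3 with 10 UMIs and 0 with 50. In T and NK cells on day 3, 0 were higher with clusters, without the top cell or without deep cells, 2 with 10 UMIs or no mitochondrial limit, and 1 lower with clusters or 10 UMIs. On day 7, 0 were higher with median-ratio scaling, without the top cell or without deep cells, and 1 lower without the mitochondrial limit and 0 with 50 UMIs. The cause was not tested in these cases.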

Other observations

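Myeloid progenitors (35 cells) and mast cells or basophils (14 cells) had too few cells per pool for the fit. Ldha stood at 408.6 CPM in myeloid progenitors and 548.3 in mast cells or basophils over all pools, and Pgk1 at 265.3, Hk3 at 87.39, Pkm at 548.0 and Hif1a at 48.81 CPM in myeloid progenitors. Slc2a3 was at 7.086 and Slc2a1 at 8.661 CPM there. The plot of levels by lineage does not include these gates.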
